A study of Homo sapiens with 6 samples.

Results

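The SMAD proteins and the proteins that restrain them were followed here as a set of 10 genes, chosen by symbol from the deposited gene count table: SMAD2, SMAD3, SMAD4, SMAD6, SMAD7, SKI, SKIL, TGIF1, SMURF1 and SMURF2. All 10 were found among the 26334 genes of the table, and all 10 had enough reads to be tested. The RNA came from MCF10DCIS.com (MCF10DCIS), a basal-like human breast cancer cell line that forms ductal carcinoma in situ-like lesions when grown in mice. Both groups had 3 libraries. Control cells (shLuc) carried a lentiviral pRSI vector with a hairpin against luciferase, and silenced cells (shWDR5) carried the same vector backbone with hairpins against WDR5, a core subunit of the complexes that methylate histone H3 at lysine 4. In both vectors the hairpin was driven by a U6 promoter and a UbiC promoter drove TagRFP and puromycin resistance, and all cells were selected with 3 µg/ml of puromycin. The study's methods describe the WDR5 hairpins as a pool, and the comparison rests on a single cell line and a single control hairpin, so that loss of WDR5 and any other effect of the hairpins cannot be told apart. The labels do not say whether the replicates were separate infections or cultures, and the p-values measure only the spread between these libraries, which may be technical.

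TGFB signals through a pair of receptor kinases that phosphorylate the receptor-regulated SMADs, SMAD2 and SMAD3. These join the common SMAD, SMAD4, enter the nucleus and act on genes together with other factors. Several brakes act on the pathway. The inhibitory SMADs SMAD6 and SMAD7 block the receptors, and the corepressors SKI, SKIL (also called SnoN) and TGIF1 turn SMAD complexes into repressors. The ubiquitin ligases SMURF1 and SMURF2 mark receptors and SMADs for degradation. SMAD7 and SKIL are themselves induced by SMAD complexes, and in mammary epithelium the pathway both restrains growth and drives epithelial-to-mesenchymal transition (EMT).

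Upon WDR5 silencing the 10 genes did not move as a block. The corepressors SKI, SKIL and TGIF1 and the inhibitory SMAD7 were higher in shWDR5 cells, SMAD3 and, with a weaker call, SMAD4 were lower, and SMAD2, SMAD6, SMURF1 and SMURF2 did not pass the test. The largest changes were 1.61-fold for SKIL and 1.61-fold for SKI, whose fitted values on the log2 scale were 0.69 and 0.68, and the lowest was 0.731-fold for SMAD3.

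Promoter sequences were taken from RefSeq (GRCh38.p14) to show what SMAD-related letters lie upstream of the members, since SMAD7 and SKIL are feedback targets that rose and SMAD6 is a feedback inhibitor that did not pass the test. The table held windows for 9 of the 10 members, 22 windows in all because several genes have more than 1 start site, and the windows of a gene may overlap. The 250 bases before each start were searched on both strands for the palindromic SMAD element GTCTAGAC, for the CAGA box AGCCAGACA, and for the shorter CAGAC, which is also contained in the CAGA box. GTCTAGAC was present in 0.182% of all 35116 windows, AGCCAGACA in 0.231% and CAGAC in 38.0%. In the members' windows GTCTAGAC was found only upstream of SMAD6, beginning 12 bases before its start. AGCCAGACA was found in none, and CAGAC was found in 10 of the 22 windows. Other start sites and sequence outside these windows were not searched. The windows printed are those of SMAD6 (chr15:66701986-66702235, plus strand), the farthest upstream of the 3 windows of SMAD7 (chr18:48950966-48951215, minus strand) and SKIL (chr3:170357465-170357714, plus strand), each written 5′ to 3′ in the direction of the gene with matches in capitals.
SMAD6: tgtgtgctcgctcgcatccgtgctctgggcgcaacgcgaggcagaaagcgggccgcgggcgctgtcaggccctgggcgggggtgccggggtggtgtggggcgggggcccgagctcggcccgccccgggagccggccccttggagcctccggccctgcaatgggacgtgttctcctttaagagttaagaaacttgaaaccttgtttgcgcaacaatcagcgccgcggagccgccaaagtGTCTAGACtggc
SMAD7: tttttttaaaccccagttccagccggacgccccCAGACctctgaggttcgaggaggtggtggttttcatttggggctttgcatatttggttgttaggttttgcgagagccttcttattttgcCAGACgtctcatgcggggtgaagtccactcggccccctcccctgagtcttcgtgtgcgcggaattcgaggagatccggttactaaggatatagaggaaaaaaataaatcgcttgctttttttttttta
SKIL: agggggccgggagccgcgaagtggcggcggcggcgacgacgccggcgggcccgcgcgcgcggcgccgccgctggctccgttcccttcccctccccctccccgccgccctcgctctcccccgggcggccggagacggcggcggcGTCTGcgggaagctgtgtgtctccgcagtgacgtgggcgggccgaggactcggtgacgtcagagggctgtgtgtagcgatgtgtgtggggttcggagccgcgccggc
SMAD7 held CAGAC beginning 217 and 128 bases before this start, and SKIL held its reverse complement beginning 107 bases before its start. CAGAC was not limited to members that rose. It lay in the 1 window of SMURF1, which did not pass the test, and in 2 of 5 windows of SMAD3, which was lower. It lay in 2 of 3 windows of SMAD7 and 4 of 7 of TGIF1, and in none of SMAD2, SMAD4, SMAD6 and SMURF2. A link between CAGAC and the changes was not tested. The window of SKIL was 78.4% G and C, that of SMAD6 68.0% and that of SMAD7 48.0%. These matches describe letters in the windows, and no binding was measured in these libraries.

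The libraries held between 38218108 and 57640167 counts over genes, and each member was covered by 171 to 17500 counts per library, the lowest belonging to SMAD6. Levels are given as RPKM, the count per kilobase of exon in libraries scaled to a common size. The targeted gene WDR5 had 16.5, 15.2 and 16.1 RPKM in the shLuc libraries and 7.35, 7.65 and 6.52 RPKM in the shWDR5 libraries. The level was 55.0% lower, so that WDR5 was lowered and not abolished. Over all genes, 56.5% of the 16117 tested passed a false discovery rate (FDR) of 0.05 in shWDR5 against shLuc, 26.6% with a higher and 29.9% with a lower level. All 8 markers of basal breast epithelium were above 1 RPKM in every library. Their summed level lay between 1820 and 2050 RPKM in shLuc and between 2820 and 3190 RPKM in shWDR5 cells. The sum rose with 6 of these genes, while 2, CDH1 and EPCAM, were lower in shWDR5 cells. Of the 8 fibroblast markers only COL1A1 passed 1 RPKM in every library, LUM was at 0 in all of them, and their summed level lay between 2.54 and 4.05 RPKM over the 6 libraries. Of the 4 leukocyte markers CD3E was at 0 in all libraries, and no endothelial marker passed 1 RPKM in every library. The summed leukocyte level lay between 5.56 and 7.03 RPKM, nearly all of it CD68, and the summed endothelial level between 1.15 and 1.87 RPKM.

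In control cells the members differed widely in level. SMAD3 was the most abundant at 51.6 ± 2.55 RPKM (SD, n = 3), followed by SMURF2 at 40.1 ± 1.48 RPKM. TGIF1, SMURF1 and SKI formed a middle group at 18.5, 17.7 and 16.6 RPKM. SMAD2, SMAD4 and SKIL followed at 6.46, 6.40 and 5.97 RPKM, and the ranges of neighbouring genes in this trio overlapped over the 3 libraries. The inhibitory SMADs were the least abundant, with SMAD7 at 3.38 and SMAD6 at 1.50 RPKM. In shWDR5 cells SMURF2 stood first at 40.1 ± 1.22 RPKM and SMAD3 second at 37.7 ± 0.298 RPKM, with SKI at 26.7 and TGIF1 at 25.0 RPKM, whose ranges overlapped. SMAD4 at 5.45 and SMAD7 at 4.84 RPKM also overlapped in shWDR5 cells. SMAD3 made up 29.3 to 32.4% of the summed RPKM of the 10 genes in control libraries and 20.5 to 21.8% in shWDR5 libraries. RPKM uses the full exon length of each gene in the table, so the level of a gene read mainly from shorter transcripts is understated.

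**Figure D1:**
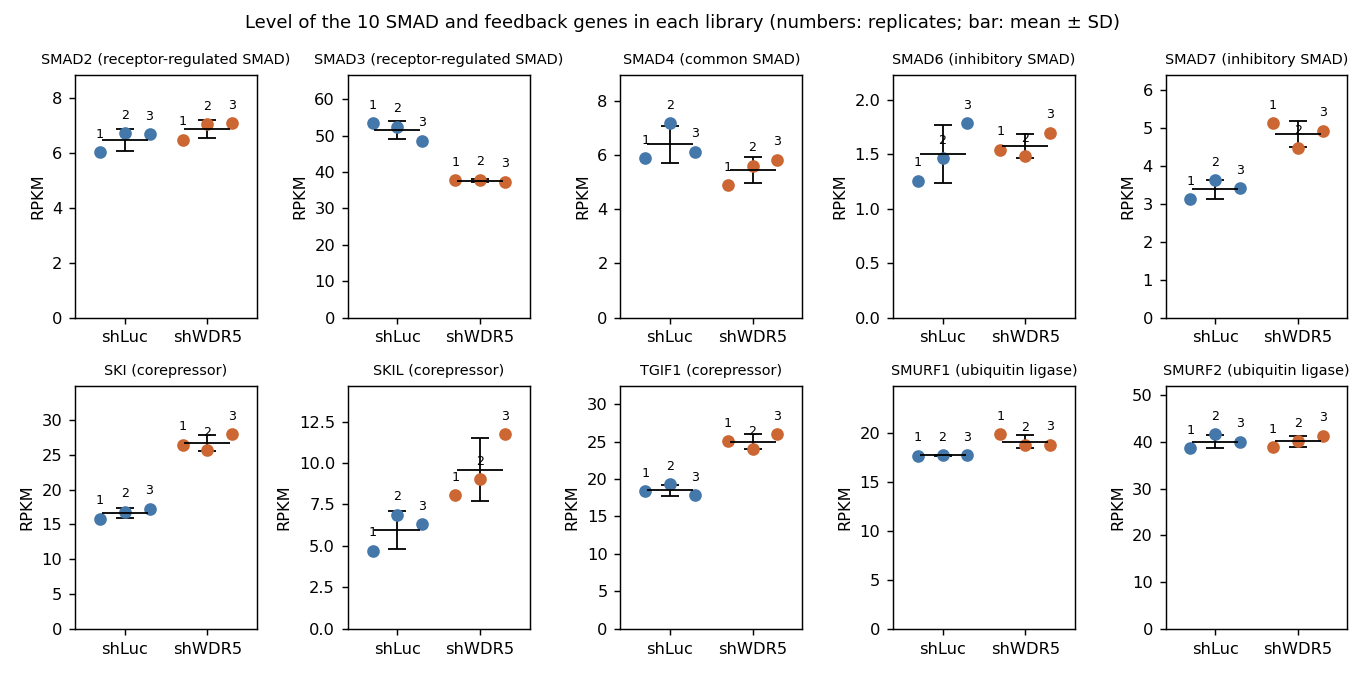
Level in RPKM (vertical axes, each starting at 0 with its own scale) of the 10 genes in the 3 shLuc and 3 shWDR5 libraries; points are libraries labelled by replicate number, and bars are the mean ± SD. SMAD3 sits at 48.7 to 53.5 RPKM in shLuc and at 37.4 to 38.0 RPKM in shWDR5 libraries, while SKI, SKIL, TGIF1 and SMAD7 are higher in every shWDR5 library than in any shLuc library.

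The receptor-regulated SMADs differed from each other in abundance and in response. SMAD3 (chr15:67358195-67487533, hg19, plus strand) had 53.5, 52.5 and 48.7 RPKM in shLuc libraries and 37.7, 38.0 and 37.4 RPKM in shWDR5 libraries. All 3 silenced libraries were below all 3 controls, and the shWDR5 values lay within 1 RPKM of each other. The log2 fold change was -0.45 (SE 0.0543, 95% interval -0.57 to -0.33, adjusted p = 2.41e-05 in edgeR's quasi-likelihood test), a level 26.9% lower. In a bulk library a lower level per cell and fewer cells with the transcript cannot be told apart. SMAD2 (chr18:45359466-45457517, hg19, minus strand), its close relative, had 6.02, 6.70 and 6.67 RPKM in shLuc and 6.47, 7.04 and 7.07 RPKM in shWDR5 libraries. These ranges overlapped, and the log2 fold change of 0.09 had an interval from -0.05 to 0.23 (adjusted p = 0.279), which leaves out a fall of the size of that of SMAD3. Within each library SMAD3 exceeded SMAD2 by 8.89-, 7.84- and 7.29-fold in shLuc and by 5.83-, 5.39- and 5.28-fold in shWDR5 cells.

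SMAD4 (chr18:48556583-48611411, hg19, plus strand), the partner shared by all receptor-regulated SMADs, had 5.88, 7.19 and 6.13 RPKM in shLuc libraries. In shWDR5 libraries it had 4.91, 5.62 and 5.84 RPKM, so that the highest silenced library was just below the lowest control. Its log2 fold change of -0.23 (95% interval -0.43 to -0.04) had an adjusted p of 0.0437, close to the threshold. The call was lost in 7 of 14 alternative fits, among them the fit without shLuc replicate 2, the highest control, where the change was -0.15 with an adjusted p of 0.205, and the fit without shWDR5 replicate 1, the lowest silenced library, where it was -0.16 with an adjusted p of 0.144. It was also lost without shLuc replicate 3 (adjusted p = 0.0819) and without shWDR5 replicate 2 (adjusted p = 0.0786), and over all 14 fits the change ranged from -0.28 to -0.15. The fall of SMAD4 is therefore much less secure than that of SMAD3, which was called in every one of these fits.

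The inhibitory SMADs also parted. SMAD7 (chr18:46446223-46477081, hg19, minus strand), which recruits SMURF ligases to the receptors, had 3.12, 3.62 and 3.40 RPKM in shLuc and 5.13, 4.47 and 4.93 RPKM in shWDR5 libraries. Every silenced library was above every control, and the level was 1.43-fold higher (log2 fold change 0.52, SE 0.0842, adjusted p = 0.000248). SMAD6 (chr15:66994674-67074337, hg19, plus strand), which acts mainly on the BMP branch, had 1.26, 1.47 and 1.79 RPKM in shLuc and 1.54, 1.49 and 1.70 RPKM in shWDR5 libraries. Its groups overlapped, and the log2 fold change of 0.07 had an interval from -0.21 to 0.35 (adjusted p = 0.658). With 171 to 254 counts per library SMAD6 was the least covered member, and a rise as large as the estimate for SMAD7 lay outside its interval. Within each library SMAD7 exceeded SMAD6 by 2.48-, 2.47- and 1.91-fold in shLuc cells and by 3.33-, 3.01- and 2.90-fold in shWDR5 cells. The palindromic element shown above lay upstream of SMAD6 and was not found in the 3 windows of SMAD7. Those windows need not hold every SMAD7 start site, so its absence from the SMAD7 promoter cannot be concluded.

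All 3 corepressors were higher in shWDR5 cells. SKI (chr1:2160134-2241652, hg19, plus strand), which recruits repressor complexes to SMAD proteins, had 15.8, 16.8 and 17.2 RPKM in shLuc and 26.4, 25.7 and 27.9 RPKM in shWDR5 libraries. The groups were far apart relative to their spread, with a log2 fold change of 0.68 (SE 0.0586, 95% interval 0.55 to 0.81, adjusted p = 1.74e-06). SKIL (chr3:170075473-170114637, hg19, plus strand), the relative of SKI that TGFB both degrades and induces, had 4.72, 6.88 and 6.31 RPKM in shLuc and 8.05, 9.04 and 11.7 RPKM in shWDR5 libraries. Its spread was the widest among the 10, 18.8% of the mean in shLuc and 19.8% in shWDR5 cells. The log2 fold change of 0.69 thus had a broad interval, from 0.25 to 1.13 (adjusted p = 0.0173), although the groups did not overlap. When no filter on low counts was applied the adjusted p of SKIL rose to 0.0684.

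TGIF1 (chr18:3411925-3458406, hg19, plus strand), a homeodomain corepressor of SMAD2 and SMAD3, had 18.4, 19.3 and 17.9 RPKM in shLuc and 25.1, 24.0 and 25.9 RPKM in shWDR5 libraries. Every silenced library was above every control, and the level was 1.35-fold higher (log2 fold change 0.43, SE 0.058, adjusted p = 5.67e-05). Its closest relative TGIF2 went the other way, from 7.47 ± 0.331 to 4.97 ± 0.230 RPKM (SD, n = 3), a log2 fold change of -0.59 with an adjusted p of 2.28e-05. SKI exceeded SKIL by 2.45- to 3.35-fold in shLuc libraries and by 2.38- to 3.28-fold in shWDR5 libraries, so that this ratio overlapped between the groups while both genes rose.

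Neither SMURF ligase passed the test. SMURF2 (chr17:62540735-62658386, hg19, minus strand) had 38.6, 41.6 and 40.0 RPKM in shLuc and 38.9, 40.2 and 41.3 RPKM in shWDR5 libraries. The groups overlapped, and the interval of the log2 fold change ran from -0.12 to 0.12 (adjusted p = 0.985). SMURF1 (chr7:98625058-98741743, hg19, minus strand) had 17.7, 17.8 and 17.7 RPKM in shLuc and 19.9, 18.8 and 18.8 RPKM in shWDR5 libraries. Its groups did not overlap, yet the difference was small, with a log2 fold change of 0.11, an interval from -0.01 to 0.23 and an adjusted p of 0.096. It passed the threshold with upper-quartile scaling (adjusted p = 0.048) and with the replicate number as a block (adjusted p = 0.0284). SMURF1 shares 294 exon bases with LOC101927550 on the opposite strand, which held 59 to 146 counts per library, and the strand setting of the counting is not given in the sources used here.

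In all, 6 of the 10 members passed the test, 4 higher and 2 lower in shWDR5 cells. That share of 60% is close to the 56.5% of all genes tested that passed, and 7 of the 10 members had groups that did not overlap, beside 62.3% of all genes. The count of called members therefore does not set this list apart. The median log2 fold change was 0.10 over the members and -0.01 over all genes tested. SKI and SKIL lay at percentiles 90.3 and 90.4 of the fold changes of all genes tested, SMAD7 at 86.1, TGIF1 at 82.8, SMAD4 at 31.6 and SMAD3 at 18.3. With the minimum size the study used, an absolute log2 fold change of 0.6 and more than 0.5 RPKM, SKI and SKIL were the 2 members called higher, beside 7.9% of all genes in that direction, and 0 members were called lower, beside 10.4%. Without that minimum 2 members were lower, by edgeR's quasi-likelihood test, by its exact test and by DESeq2, and 2 were lower at an unadjusted p under 0.05.

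**Figure D2:**
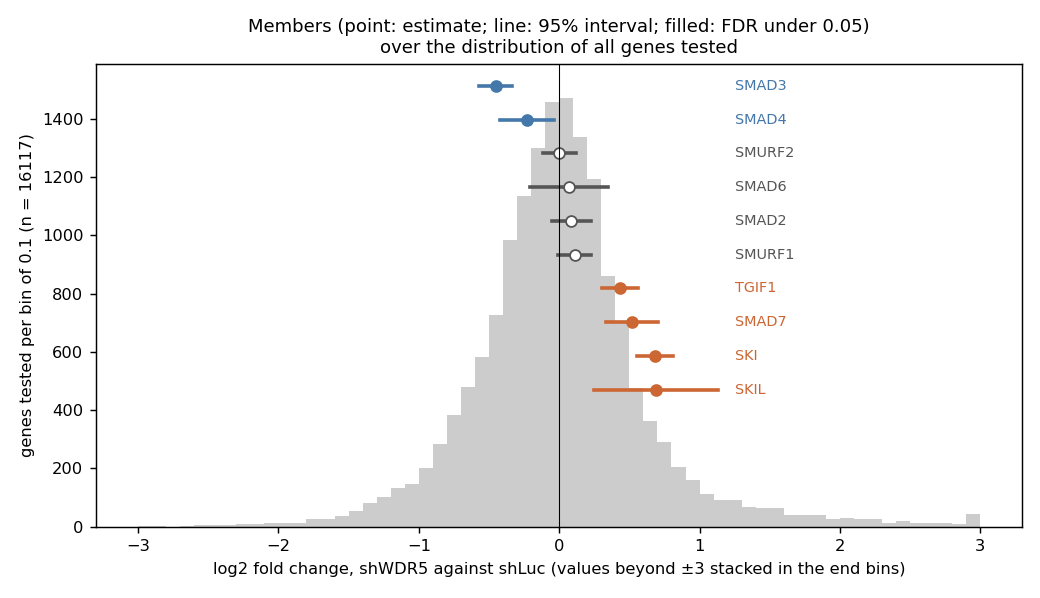
Log2 fold change of shWDR5 against shLuc (horizontal axis) for each member as a point with its 95% interval, filled where the FDR was under 0.05, drawn over a histogram of the 16117 genes tested (vertical axis, genes per bin of 0.1). The members run from -0.45 for SMAD3 to 0.69 for SKIL and lie within the body of the distribution of all genes.

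**Figure D3:**
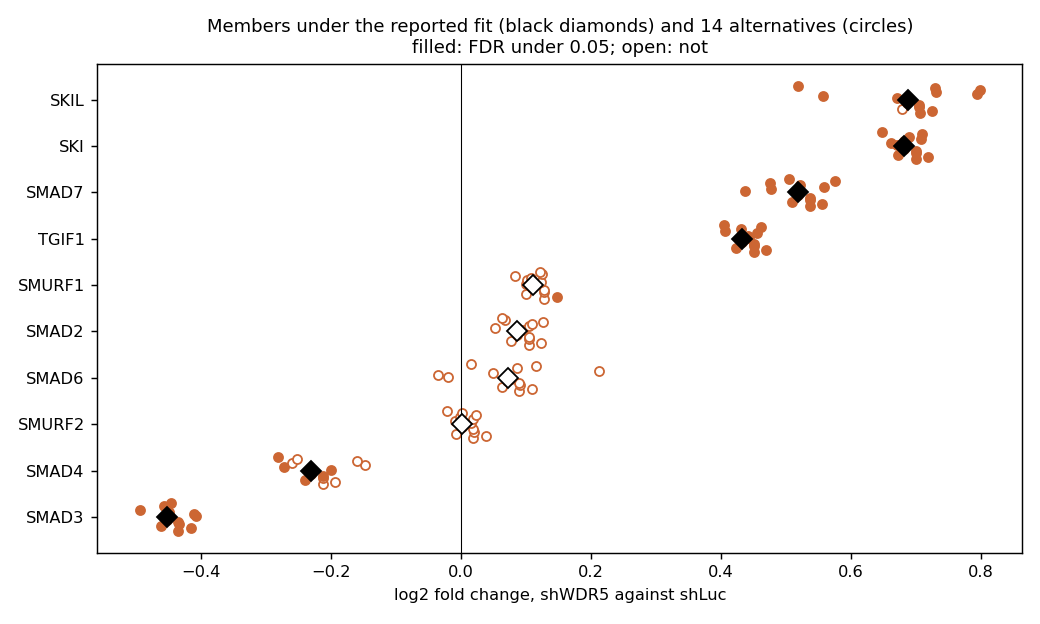
Log2 fold change of each member (horizontal axis) under the reported fit (black diamonds) and 14 alternatives (circles), filled where the FDR was under 0.05. SMAD3, SMAD7, SKI and TGIF1 are filled throughout, SKIL is open in 1 alternative and SMAD4 in 7.

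The ligands and receptors upstream of the SMADs were mostly lower. Of 8 genes 5 were lower, 2 higher and 1 did not pass the test, beside 29.9% lower and 26.6% higher of all genes. The median log2 fold change was -0.36. With the minimum size the study used, 1 of the 8 was lower and 1 higher. TGFB1, a ligand of the pathway, fell from 9.04 ± 0.617 to 5.56 ± 0.405 RPKM (SD, n = 3), a log2 fold change of -0.70 with an adjusted p of 1.77e-05. The coreceptors ENG (endoglin) and TGFBR3 (betaglycan) had log2 fold changes of -0.46 and -0.52 with adjusted p of 4.14e-05 and 0.000674. TGFBR1, the kinase that phosphorylates SMAD2 and SMAD3, was instead higher, with 4.11, 4.79 and 4.55 RPKM in shLuc and 6.15, 6.74 and 7.54 RPKM in shWDR5 libraries (log2 fold change 0.60, adjusted p = 8.41e-05).

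Of the SMADs of the BMP branch, SMAD1 rose 1.71-fold, from 4.24 ± 0.272 to 7.24 ± 1.11 RPKM (SD, n = 3, adjusted p = 8.29e-05). SMAD9 passed the test at a low level, 0.545 RPKM in shLuc and 0.751 RPKM in shWDR5 cells (adjusted p = 0.0364), with overlapping groups, and lost its call without shLuc replicate 1 or 3 and without shWDR5 replicate 2 or 3, where the adjusted p lay between 0.0843 and 0.122. SMAD5 varied within groups, from 13.0 to 19.0 RPKM in shLuc and from 11.9 to 16.8 RPKM in shWDR5 cells, and did not pass the test (adjusted p = 0.718). In the reported fit 2 of the 3 were higher and 0 lower, beside 26.6% higher and 29.9% lower of all genes. The count of lower genes was also 0 in edgeR's exact test, in DESeq2 and at an unadjusted p under 0.05. With 3 genes these counts do not set the branch apart.

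The other ubiquitin ligases, deubiquitinases and phosphatases that act on SMADs or receptors were split, with a median log2 fold change of -0.01. Of these 13 genes 4 were higher and 5 lower, near the 26.6% higher and 29.9% lower of all genes. STUB1 (CHIP), a chaperone-linked ligase that targets SMADs, rose from 14.2 ± 0.424 to 27.4 ± 0.151 RPKM (SD, n = 3, adjusted p = 1.77e-07). WWP2, a ligase of the NEDD4 family like the SMURFs, was 1.30-fold higher (adjusted p = 0.000284). ITCH, of the same family, and USP11, a deubiquitinase, were 33.2% and 30.7% lower, with adjusted p of 1.87e-05 and 0.000124.

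Among the other anchors, partners and feedback factors 8 of 15 were higher and 4 lower, beside 26.6% higher and 29.9% lower of all genes. The median log2 fold change of this list was 0.27. PMEPA1, a membrane protein induced by TGFB that sequesters SMAD2 and SMAD3, had 16.3, 17.2 and 17.1 RPKM in shLuc and 78.9, 68.1 and 78.1 RPKM in shWDR5 libraries. Its 4.45-fold rise (log2 fold change 2.15, SE 0.0673, adjusted p = 2.58e-09) was larger than that of any of the 10 members. BAMBI, a pseudoreceptor without kinase activity, rose 1.88-fold, from 6.57 ± 0.393 to 12.4 ± 0.184 RPKM (SD, n = 3, adjusted p = 9.41e-07). SP1, a zinc finger factor that works with SMADs on many promoters, was 37.2% lower (adjusted p = 9.34e-07).

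Genes that TGFB commonly induces were higher in shWDR5 cells far more often than lower. Of 19 tested 15 were higher, 78.9% beside 26.6% of all genes, and 0 were lower in edgeR's quasi-likelihood test. The list was chosen with earlier results of these data known, so this excess describes the list and is not an independent test. At an unadjusted p under 0.05 the count of lower genes was 1, and it was 1 with DESeq2, 1 with edgeR's exact test and 2 with the replicate number as a block. PMEPA1 is in this list too. SMAD7 and SKIL belong to it as well, and of the 17 genes left without them 13 were higher. CTGF, a matricellular protein, had 32.8, 32.5 and 36.1 RPKM in shLuc and 94.6, 89.1 and 95.1 RPKM in shWDR5 libraries (log2 fold change 1.46, adjusted p = 1.27e-08). SNAI2, a zinc finger repressor active in EMT and in basal mammary cells, rose 2.43-fold (adjusted p = 1.97e-07).

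The 4 genes of this list that did not pass, named here after their values were seen, were TGFBI, SNAI1, COL4A1 and COL4A2, with log2 fold changes of -0.27, -0.39, 0.06 and -0.11. CDKN2B, a cell cycle inhibitor and a classical SMAD target, had no count in any library and was not tested. By reads alone, this allows up to 0.0774 CPM (the library-scaled count) in the shallowest library (3 counts). Whether these cells carry the gene was not examined, so its absence says nothing about SMAD activity. The basal epithelial markers moved in the same comparison, and all 8 passed the test. Of these 6 were higher, among them KRT6A at a log2 fold change of 1.83, and 2 were lower, CDH1 at -1.03 and EPCAM at -0.33. Their part in the result for TGFB-induced genes was not tested.

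**Figure D4:**
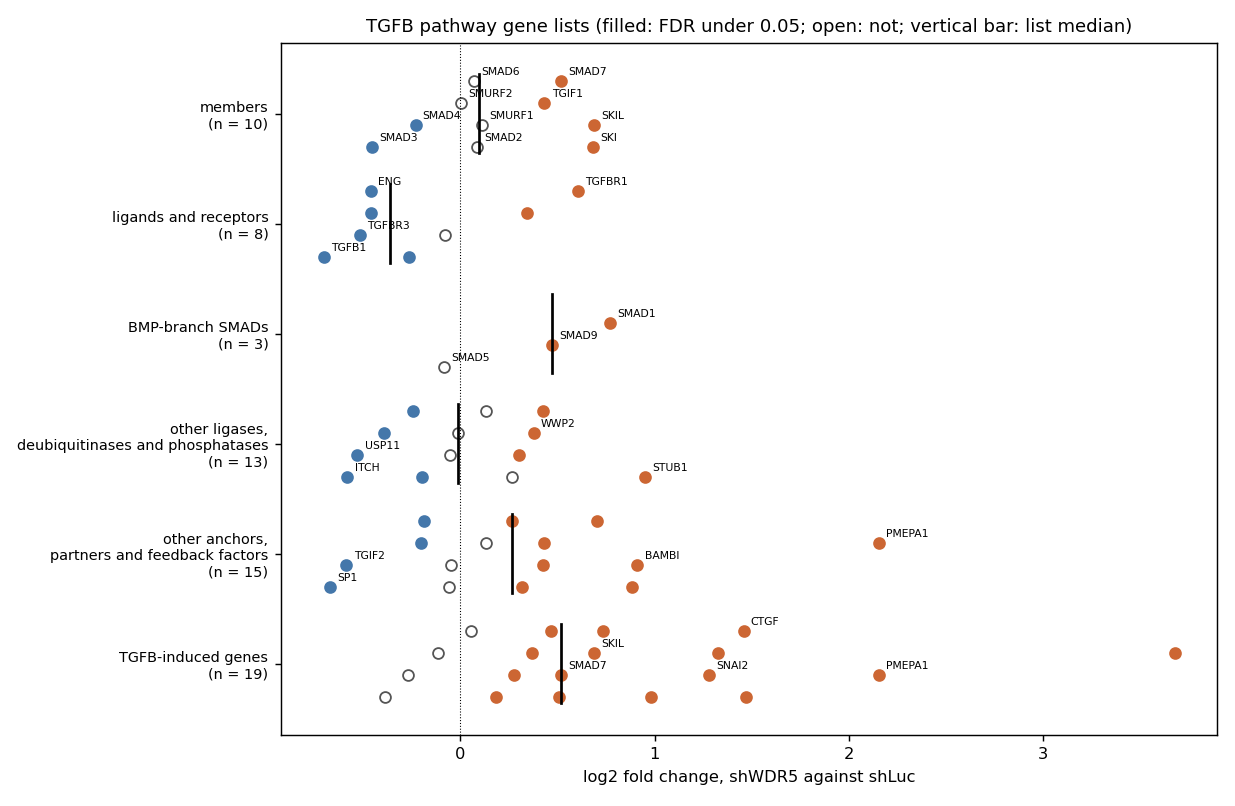
Log2 fold change of shWDR5 against shLuc (horizontal axis) for every tested gene of the members and of 5 other pathway lists (rows), filled where the FDR was under 0.05, with a vertical bar at the list median. PMEPA1, SMAD7 and SKIL appear in 2 lists; ligands and receptors have a median of -0.36 and TGFB-induced genes one of 0.52.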

How the data were processed

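Poly-A RNA of 3 shLuc and 3 shWDR5 MCF10DCIS libraries was sequenced, and per the labels the authors mapped reads with TopHat2 2.1.0 to hg19 and counted them per gene with featureCounts. The deposited values are raw counts, and the summed exon length in the same table was used for RPKM. Strand and multi-mapping settings are not given in the sources used here. A second deposited table, the authors' own edgeR comparison (log2 fold changes and p-values), was not used.

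Counts were fitted with edgeR 4.0.16 (filterByExpr, TMM scaling, robust quasi-likelihood F-test, no block), and p-values were adjusted by Benjamini-Hochberg over all 16117 genes tested, with calls at FDR under 0.05. Standard errors and 95% intervals were derived from the F statistic and its degrees of freedom. No error rate of the fit is given here. Alternatives were RLE and upper-quartile scaling, other filters, DESeq2 1.42.0, edgeR's exact test, a replicate block, the study's minimum size, and each library left out. In 1 more fit, chosen after seeing the data, both libraries numbered 1 were left out. The 14 alternative fits include that unplanned fit, in which SMAD4 kept its call, and do not include the minimum size. No pair of libraries agreed within sampling noise. Totals of 38218108 to 57640167 counts limit the precision mainly of SMAD6. Text names all members, WDR5, TGFB1 and, from each pathway list, the 4 genes with the lowest adjusted p, except for a gene that is not reported here. The members and lists were chosen with earlier results of these data known.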

Additional observations from a re-analysis of the deposited data

How the results depend on the processing

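Over 14 alternative fits SMAD3, SMAD7, SKI and TGIF1 kept their direction and their call. The members called higher numbered 4 in the reported fit and 3 to 5 in these fits, and 2 with the minimum size. The members called lower numbered 2 in the reported fit, and 1 with RLE scaling, 1 with upper-quartile scaling, 1 with the filter of 1 CPM in 3 libraries and 0 with the minimum size, the gene lost at each of the first 3 being SMAD4. Leaving out each library in turn gave 4 members higher each time and 1 to 2 lower, and 3792 to 4268 genes higher and 4264 to 4573 lower in all. The minimum size left 1273 genes higher and 1684 lower, in place of 4292 and 4811, by its own construction.

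Values near 0 changed sign without a call: without 1 library at a time SMAD6 ranged from -0.03529 to 0.2123, SMURF2 from -0.02073 to 0.02352 and SMAD5 from -0.1902 to 0.07533. SMAD6 was below 0 without shLuc replicate 1, SMURF2 was at -0.008296 with no filter, and without shLuc replicate 1, shLuc replicate 3 or shWDR5 replicate 3 at -0.009666, -0.001184 and -0.02073, and SMAD5 was at 0.07533 without shLuc replicate 2 and 0.04702 without shWDR5 replicate 1. The cause was not tested.

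The replicate numbers paired the libraries at most in part. Deviations from the group means correlated at 0.636, 0.0815 and 0.242 for numbers 1, 2 and 3. Not every library correlated best with its own number, and shLuc 2 and shWDR5 3 correlated at 0.44. In the fit with the block the standard error of SKIL was 0.0915 in place of 0.185, and standard errors were smaller for every member. With the number as a replicate block 5 members were higher and 2 lower, SMURF1 being the addition, 6 ligases, deubiquitinases and phosphatases were higher in place of 4, and 4909 genes were higher and 5521 lower. Because the libraries numbered 1 deviated together, both were left out in an alternative chosen after seeing the data, which gave 4 members higher and 2 lower, with SMAD6 at -0.01986.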
